A study of Arabidopsis thaliana with 8 samples.

Results

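The Aux/IAA and ARF genes encode the paired repressors and DNA-binding factors of the auxin response. The members were taken by locus, as 28 Aux/IAA genes (*IAA1* to *IAA34*, with gaps in the numbering) and 15 ARF genes (*ARF1* to *ARF11* and *ARF16* to *ARF19*), together 43 genes. The expression table lists 24492 loci and holds a row with values for 41 of the 43, without *IAA31* and *IAA33*. Expression is in FPKM, the number of sequenced fragments scaled to transcript length and to the mapped total of the library. A gene was tested where its mean over the 6 libraries reached 0.1 FPKM, and 40 members passed, with *IAA32* below that minimum.

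Rosette leaves of 6-week-old *Arabidopsis thaliana* plants were collected from Col-0 wild type (WT) and from the *kaku4* mutant, a single T-DNA insertion line in the same background that the labels call *kaku4*-2. *KAKU4* encodes a lamin-like protein of the plant inner nuclear envelope. RNA-seq was done on 3 independent leaf samples per genotype, with no treatment of either. The table holds no counts, so the read depth behind each value is not given, and the spread between 3 libraries is the measure of precision.

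*KAKU4* itself was lower in all 3 *kaku4* libraries (0.739, 1.26 and 0.943 FPKM) than in all 3 WT libraries (6.41, 5.45 and 5.71 FPKM). The leaf gene *RBCS1A* ranged from 12434 to 18347 FPKM over the 6 libraries, while the summed level of 6 root markers, 2 of which had no value, stayed between 0.0683 and 0.850 FPKM. Another leaf marker, *LHCB1.3*, was listed at 0 in 5 libraries and at 40368 FPKM in *kaku4* replicate 2, so a listed 0 in this table need not mean absence. The FPKM summed over chloroplast genes was 44363 and 30587 in replicate 1 of WT and *kaku4* and between 499 and 945 in the other libraries. Bulk leaf RNA cannot tell apart fewer cells of a type and less RNA per cell.

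Aux/IAA proteins are short-lived nuclear repressors. Auxin acts as a molecular glue between a degron in the Aux/IAA protein and an F-box receptor of the TIR1/AFB group, which leads to ubiquitination and breakdown of the repressor. The ARF proteins bind auxin response elements in DNA, and they are freed to act once the Aux/IAA proteins, and the TOPLESS co-repressors that these recruit, are gone. Many Aux/IAA genes are themselves switched on by auxin, which closes a feedback loop. In leaves, *ARF2* is known as a factor that promotes ageing, and the Aux/IAA gene *IAA29* is known for its part in leaf senescence and shade growth.

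The degron turns on a Gly-Trp-Pro-Pro core. Coding sequences read from RefSeq annotation of TAIR10.1 held that core in 22 of the 28 Aux/IAA genes and lacked it in 6 (*IAA20*, *IAA30*, *IAA31*, *IAA32*, *IAA33* and *IAA34*). It was followed by Val in 16 genes, by Ile in 5 and by Leu in 1. The coding sequence around the core is shown for the 4 genes that were lower in *kaku4* under both treatments of transcript length described below (*IAA3*, *IAA8*, *IAA17* and *IAA18*), for the abundant *IAA7*, for *IAA27*, which differed least, and for *IAA10*, with the Leu codon. Capitals mark the 4 codons of the core and the codon after it, and all windows lie in coding exons.
IAA3 (chr1:1129019-1129045, minus strand, Val): attgttGGATGGCCACCAGTTagatct
IAA8 (chr2:9637728-9637754, plus strand, Ile): gttgttGGTTGGCCTCCAATCagatca
IAA17 (chr1:1136941-1136967, plus strand, Val): gttgtgGGATGGCCACCGGTGagatca
IAA18 (chr1:19306234-19306260, plus strand, Val): gtggtgGGATGGCCTCCGGTTcgatcc
IAA7 (chr3:8195571-8195597, plus strand, Val): gtggtgGGATGGCCACCTGTGaggaac
IAA27 (chr4:14324654-14324680, minus strand, Ile): gtggtgGGATGGCCACCAATAagatca
IAA10 (chr1:1060331-1060357, plus strand, Leu): gctgtaGGTTGGCCGCCTCTAcggact

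*IAA4* carried the same 27 bases as *IAA3*. No member shared a stretch of 50 bases with the longest transcript of any other gene, each read in its own direction. Reads of the members could thus be told from those of their relatives in the family. Overlaps with genes on the other strand, described below, were not part of that search.

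Several ARF transcripts are cut by microRNAs, miR160 for the class C genes *ARF10*, *ARF16* and *ARF17* and miR167 for *ARF6* and *ARF8*. The microRNAs and their best matching sites are shown because the results for these genes are grouped by site further on. In the microRNAs, capitals mark the seed, bases 2 to 8, and in the target sites capitals mark bases that pair with the microRNA.
ath-miR160a-5p: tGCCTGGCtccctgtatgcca
ARF17 site (chr1:29274189-29274209, plus strand, coding exon): TGGCATgCAGGGAGCCAGGCA
ARF10 site (chr2:12115741-12115761, plus strand, coding exon): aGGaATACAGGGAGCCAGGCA
ARF16 site (chr4:14704141-14704161, minus strand, coding exon): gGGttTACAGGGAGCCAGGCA
ath-miR167a-5p: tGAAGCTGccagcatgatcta
ARF8 site (chr5:14633841-14633861, plus strand, coding exon): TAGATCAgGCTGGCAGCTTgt
ARF6 site (chr1:10686478-10686498, minus strand, coding exon): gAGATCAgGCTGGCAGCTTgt

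Of the 21 bases, 20 paired in *ARF17*, 19 in *ARF10* and 18 in *ARF16*, whereas no other ARF transcript had a window with more than 13. For miR167 the sites paired at 18 bases in *ARF8* and 17 in *ARF6*, against at most 14 elsewhere. These are matches of letters in the reference, and the microRNAs themselves were not measured.

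The Aux/IAA genes were lower in the *kaku4* mutant than in WT. A gene was called where its log2 fold change reached 1 in either direction and its limma adjusted p was no higher than 0.05. By these criteria 11 of the 25 tested Aux/IAA genes fell in *kaku4*, *IAA1*, *IAA3*, *IAA4*, *IAA5*, *IAA6*, *IAA8*, *IAA17*, *IAA18*, *IAA19*, *IAA29* and *IAA30*, against 11.5% of all 20618 genes tested. None was called higher, and none had a positive fold change with an unadjusted p under 0.05 in limma, whereas 16.4% of all genes were called higher. All 25 fold changes were negative on the deposited scale (23 under quantile normalization and 24 with the length trend removed), with a median log2 fold change of -1.02 beside 0.0021 over all genes. The 3 libraries of each genotype did not overlap for 21 of them, all with *kaku4* below WT, where 31.3% of all genes showed that order. On the adjusted p alone 19 of 25 were lower, against 28.3% of all genes. Without *kaku4* replicate 2 the count of 11 became 7, as *IAA4*, *IAA8*, *IAA18* and *IAA19* no longer met both criteria. Under quantile normalization *IAA8* (log2 fold change -0.53), *IAA18* (-0.92) and *IAA19* (-0.87) also came short of the fold criterion.

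The most abundant members were *IAA8*, *IAA7* and *IAA9*. *IAA8* (AT2G22670) stood at 234, 279 and 272 FPKM in WT and at 131, 107 and 130 FPKM in *kaku4*, and fell by 1.09 on the log2 scale (SE 0.14, limma adjusted p = 0.00060). *IAA7* (AT3G23050), known from a mutant with a stabilized protein and altered gravitropism, had 239, 236 and 248 FPKM in WT and 147, 115 and 135 FPKM in *kaku4*. These groups did not overlap, and the log2 fold change of -0.87 (SE 0.13, limma adjusted p = 0.0011) missed the fold criterion. *IAA9* (AT5G65670), which shapes leaf morphology in tomato, gave 138, 191 and 193 FPKM in WT and 121, 126 and 152 FPKM in *kaku4*. Its groups overlapped, and the log2 fold change was -0.38 (SE 0.17, limma adjusted p = 0.089). Together the 3 genes held 44.1% to 51.3% of the summed Aux/IAA FPKM in WT and 47.2% to 50.6% in *kaku4*, so their joint share overlapped between the genotypes.

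*IAA3* (SHY2, AT1G04240), a regulator of root meristem size, showed the largest fall in the family and also one of the widest spreads. It had 82.6, 105 and 39.8 FPKM in WT and 24.7, 10.7 and 33.2 FPKM in *kaku4*. The closely related *IAA4* (AT5G43700) had 68.7, 69.5 and 35.4 FPKM in WT and 26.96, 12.0 and 29.3 FPKM in *kaku4*. Both genes were lowest in WT replicate 3 and in *kaku4* replicate 2 of their genotypes, and the gap between the genotypes was small beside the spread, 39.8 against 33.2 FPKM for *IAA3*. The log2 fold changes were -1.76 (SE 0.46, limma adjusted p = 0.011) for *IAA3* and -1.38 (SE 0.37, limma adjusted p = 0.013) for *IAA4*.

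*IAA17* (AXR3, AT1G04250), whose stabilized form gives strong auxin resistance, lay 6388 bases from *IAA3* on chromosome 1 and varied far less. It gave 68.0, 72.6 and 73.6 FPKM in WT and 31.1, 19.8 and 26.1 FPKM in *kaku4*. The log2 fold change of *IAA17* was -1.496 (SE 0.17, limma adjusted p = 0.00040). *IAA29* (AT4G32280) had 35.5, 37.5 and 31.7 FPKM in WT and 12.4, 12.3 and 14.0 FPKM in *kaku4*. Every WT library of *IAA29* was thus more than 2-fold above every mutant library, and its log2 fold change was -1.43 (SE 0.13, limma adjusted p = 0.00019). *IAA18* (AT1G51950), which acts in embryo patterning, had 59.4, 50.7 and 39.5 FPKM in WT and 28.4, 16.6 and 22.9 FPKM in *kaku4*, with log2 fold change -1.15 (SE 0.22, limma adjusted p = 0.0029).

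*IAA19* (MSG2, AT3G15540), needed for the bending of hypocotyls towards light, stood at 51.5, 48.4 and 52.6 FPKM in WT and at 30.5, 19.5 and 21.4 FPKM in *kaku4*. The log2 fold change was -1.12 (SE 0.17, limma adjusted p = 0.0012). *IAA1* (AT4G14560), a gene of the fast auxin response, had 11.5, 10.6 and 10.1 FPKM in WT and 4.19, 4.11 and 5.16 FPKM in *kaku4*. WT libraries of *IAA1* were all more than 2-fold above the mean of the mutant libraries, 4.49 FPKM, and the log2 fold change was -1.24 (SE 0.15, limma adjusted p = 0.00049). *IAA5* and *IAA6*, also known as rapidly induced genes, were less abundant. *IAA5* (AT1G15580) had 10.97, 9.62 and 7.91 FPKM in WT and 4.34, 2.08 and 2.99 FPKM in *kaku4* (log2 fold change -1.62, SE 0.26, limma adjusted p = 0.0014). *IAA6* (AT1G52830) had 5.33, 3.26 and 4.94 FPKM in WT and 1.83, 1.31 and 1.64 FPKM in *kaku4* (log2 fold change -1.43, SE 0.24, limma adjusted p = 0.0016). Neither gene overlapped between the genotypes.

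Among the genes that lack the degron core, *IAA30* (AT3G62100) was the one with a level above 1 FPKM in every WT library. It had 2.79, 1.95 and 2.53 FPKM in WT and 1.07, 0.836 and 0.928 FPKM in *kaku4*, with a log2 fold change of -1.27 (SE 0.23, limma adjusted p = 0.0021). *IAA20* had 0.256, 0.347 and 0.0953 FPKM in WT against 0.106, 0 and 0.0795 FPKM in *kaku4*, and *IAA34* was listed at 0 in WT replicate 2 and in *kaku4* replicates 1 and 2. Neither *IAA20* (limma adjusted p = 0.14) nor *IAA34* (limma adjusted p = 0.15) passed the test, and their standard errors of 0.54 and 0.83 on the log2 scale were the widest of the family. *IAA32* was at 0.170, 0.0566 and 0.0620 FPKM in WT and at 0, 0 and 0.0506 FPKM in *kaku4*.

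Genes of the family with a small difference were *IAA27*, *IAA26*, *IAA16*, *IAA9* and *IAA2*, with log2 fold changes between -0.24 and -0.38. *IAA27* (PAP2, AT4G29080) had 28.3, 25.9 and 24.9 FPKM in WT and 23.7, 21.4 and 22.05 FPKM in *kaku4*. Its groups did not overlap, but its log2 fold change of -0.24 (SE 0.12, limma adjusted p = 0.12) did not pass the test. By the residue after the degron core, 9 of 16 genes with Val, 1 of 5 with Ile and 0 of 1 with Leu were called lower, beside 11.5% of all genes. The Leu gene *IAA10* was negative with an unadjusted p under 0.05 in limma. The median log2 fold changes of the Val and Ile genes were -1.13 and -0.79. With the length trend removed, as described below, 3 of 16 Val genes and 1 of 5 Ile genes were called lower, beside 5.23% of all genes. The medians were then -0.68 and -0.49. No test of the Val genes against the Ile genes was made.

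**Figure D1:**
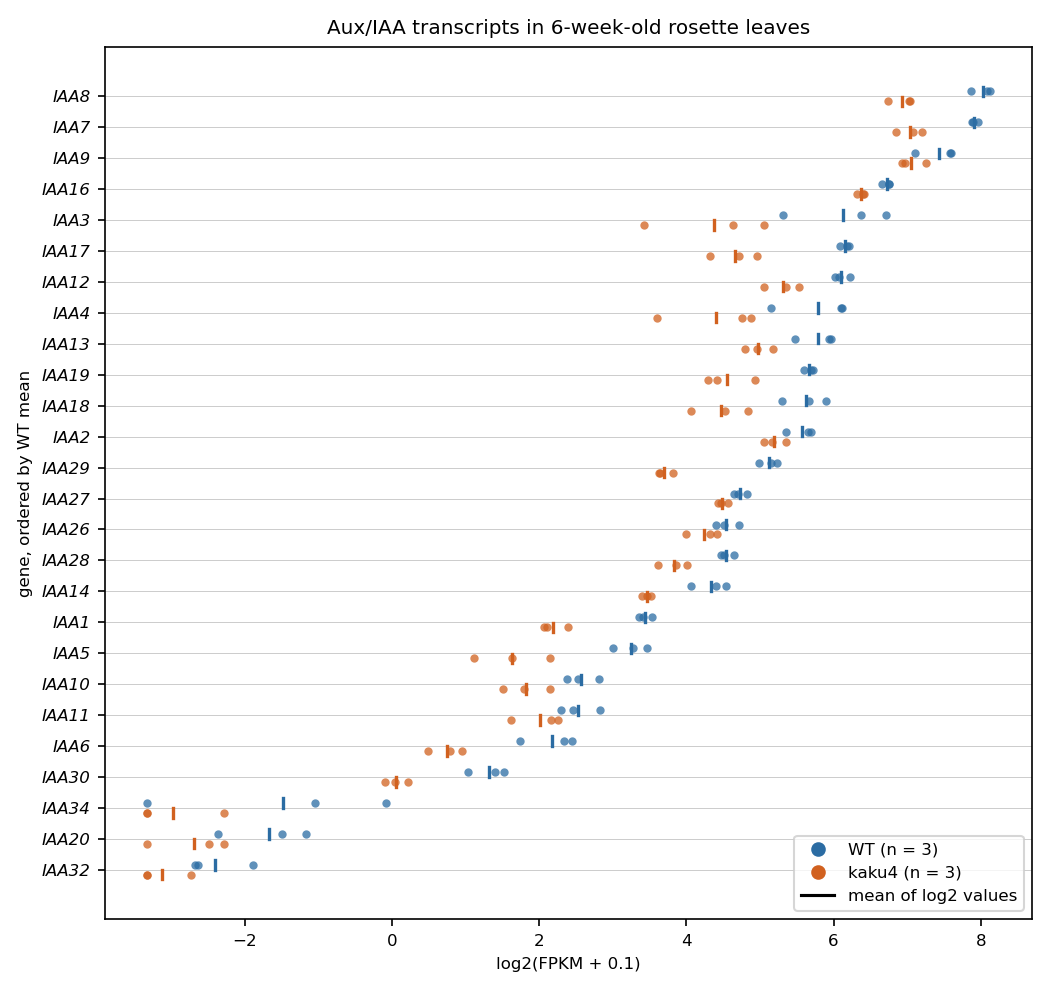
FPKM of each Aux/IAA gene with a value, on the horizontal axis as log2(FPKM + 0.1), with 1 point per library (WT blue, *kaku4* orange, n = 3 each), a bar at the mean of the log2 values, and genes ordered from top to bottom by their WT mean. On this deposited scale the *kaku4* bar lies left of the WT bar in every gene (in 23 of the 25 tested under quantile normalization), and the points of *IAA3* and *IAA4* spread most among the abundant genes.

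The ARF genes went the other way on the deposited scale, and not as a whole family. Of 15 tested, 6 rose in *kaku4* (*ARF2*, *ARF5*, *ARF6*, *ARF7*, *ARF9* and *ARF19*), beside 16.4% of all genes, and none was called lower in limma, beside 11.5%. With an unadjusted p under 0.05 in limma, 8 were higher and 1 was lower, beside 31.2% and 30.9% of all genes. The median log2 fold change was 0.70, and 13 fold changes were positive and 2 negative (12 positive after centring each library on its median, and 7 with the length trend removed). *kaku4* lay above WT without overlap for 8 of the 15 genes, beside 33.5% of all genes, and below WT without overlap for 1. On the adjusted p alone 8 were higher, beside 28.6% of all genes, and 1 was lower.

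The class A ARF genes, which encode transcriptional activators, held 4 of the 6 calls among 5 members, beside 16.4% of all genes called higher. All 5 lie in the longest decile of transcripts, where 61.6% of all genes were called higher. With the length trend removed, as described below, none of the 5 was called, and their median log2 fold change was 0.075. *ARF7* (NPH4, AT5G20730), which acts in tropic growth and lateral root formation, had 1.70, 1.34 and 1.76 FPKM in WT and 4.47, 8.48 and 5.38 FPKM in *kaku4*. Its rise of 1.82 on the log2 scale (SE 0.26, limma adjusted p = 0.00079) was the highest of the family. Its close relative *ARF19* (AT1G19220) had 0.726, 0.765 and 0.601 FPKM in WT and 1.53, 2.19 and 1.76 FPKM in *kaku4*, with log2 fold change 1.26 (SE 0.24, limma adjusted p = 0.0028). *ARF5* (MONOPTEROS, AT1G19850), a factor of embryo and vein patterning, had 0.668, 0.463 and 0.507 FPKM in WT and 1.19, 2.59 and 1.68 FPKM in *kaku4*. For all 3 genes the lowest mutant library was above the highest WT library and *kaku4* replicate 2 was the highest of all. The log2 fold change of *ARF5* was 1.52 (SE 0.32, limma adjusted p = 0.0043).

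*ARF6* and *ARF8* act together in flower maturation and carry the miR167 sites shown above. *ARF6* (AT1G30330) had 5.15, 7.01 and 7.76 FPKM in WT and 12.3, 17.1 and 14.0 FPKM in *kaku4*, with log2 fold change 1.12 (SE 0.20, limma adjusted p = 0.0018). The call of *ARF6* was lost without WT replicate 1 (log2 fold change 0.95) and without *kaku4* replicate 2 (0.995), and when each library was centred on its median (0.93), where the fold change came under 1. *ARF8* (AT5G37020) had 7.32, 10.7 and 10.5 FPKM in WT and 9.91, 12.8 and 9.89 FPKM in *kaku4*. The *ARF8* groups overlapped, with a log2 fold change of 0.20 (SE 0.19, limma adjusted p = 0.40).

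Class B ARF genes encode mostly repressors. *ARF2* (AT5G62000), the most abundant ARF gene in both genotypes, had 20.2, 16.8 and 18.4 FPKM in WT and 46.7, 66.2 and 52.6 FPKM in *kaku4*. Every mutant library was thus more than 2-fold above every WT library, and the log2 fold change was 1.56 (SE 0.16, limma adjusted p = 0.00027). *ARF2* held 16.9% to 22.3% of the summed ARF FPKM in WT and 32.5% to 35.0% in *kaku4*. *ARF9* (AT4G23980), a factor of embryo suspensor development, had 1.83, 2.21 and 2.59 FPKM in WT and 5.002, 6.64 and 5.46 FPKM in *kaku4* (log2 fold change 1.33, SE 0.20, limma adjusted p = 0.00094).

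*ARF1* (AT1G59750) had 9.78, 9.86 and 10.6 FPKM in WT and 16.8, 19.7 and 16.8 FPKM in *kaku4*, and its log2 fold change of 0.81 (SE 0.13, limma adjusted p = 0.0013) missed the fold criterion. *ARF3* (ETTIN, AT2G33860), which acts in organ polarity, had 11.6, 12.8 and 13.9 FPKM in WT and 12.3, 14.3 and 14.7 FPKM in *kaku4*, so its groups overlapped. *ARF4* (AT5G60450), its partner in leaf polarity, had 4.94, 6.16 and 6.72 FPKM in WT and 6.40, 8.87 and 7.87 FPKM in *kaku4*, which overlapped as well. The log2 fold changes were 0.11 (SE 0.14, limma adjusted p = 0.52) for *ARF3* and 0.37 (SE 0.18, limma adjusted p = 0.11) for *ARF4*. *ARF18* (AT3G61830) had 2.16, 3.98 and 3.86 FPKM in WT and 3.62, 4.44 and 4.99 FPKM in *kaku4*, so its groups overlapped. Its log2 fold change was 0.41 (SE 0.26, limma adjusted p = 0.20). In class B 2 of 7 genes were called higher, beside 16.4% of all genes, with a median log2 fold change of 0.70. *ARF2* lies in the longest decile of transcripts, where 61.6% of all genes were called higher, and *ARF9* in the ninth, where 33.2% were. The all-gene medians of the length deciles of the 7 genes had a middle value of 0.74. After removal of the length trend, as described below, no class B gene was called, and the class median came to 0.060.

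The class C genes, with the miR160 sites, were not among the ARF genes that rose. *ARF10* (AT2G28350) had 10.4, 10.7 and 12.1 FPKM in WT and 8.21, 8.06 and 7.45 FPKM in *kaku4*. It was the only ARF gene with every mutant library below every WT library, with a log2 fold change of -0.48 (SE 0.13, limma adjusted p = 0.015). *ARF17* (AT1G77850) had 8.38, 9.95 and 11.04 FPKM in WT and 7.96, 9.57 and 9.09 FPKM in *kaku4*. *ARF16* (AT4G30080) had 4.98, 6.20 and 6.62 FPKM in WT and 6.25, 6.69 and 7.42 FPKM in *kaku4*. The groups of *ARF16* and *ARF17* overlapped, and their log2 fold changes were 0.20 (SE 0.16, limma adjusted p = 0.33) and -0.14 (SE 0.15, limma adjusted p = 0.48). None of the 3 was called in limma, beside 16.4% of all genes called higher and 11.5% lower. With an unadjusted p under 0.05 in limma, 1 was lower, beside 30.9% of all genes. The median log2 fold change of the class was -0.14.

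**Figure D2:**
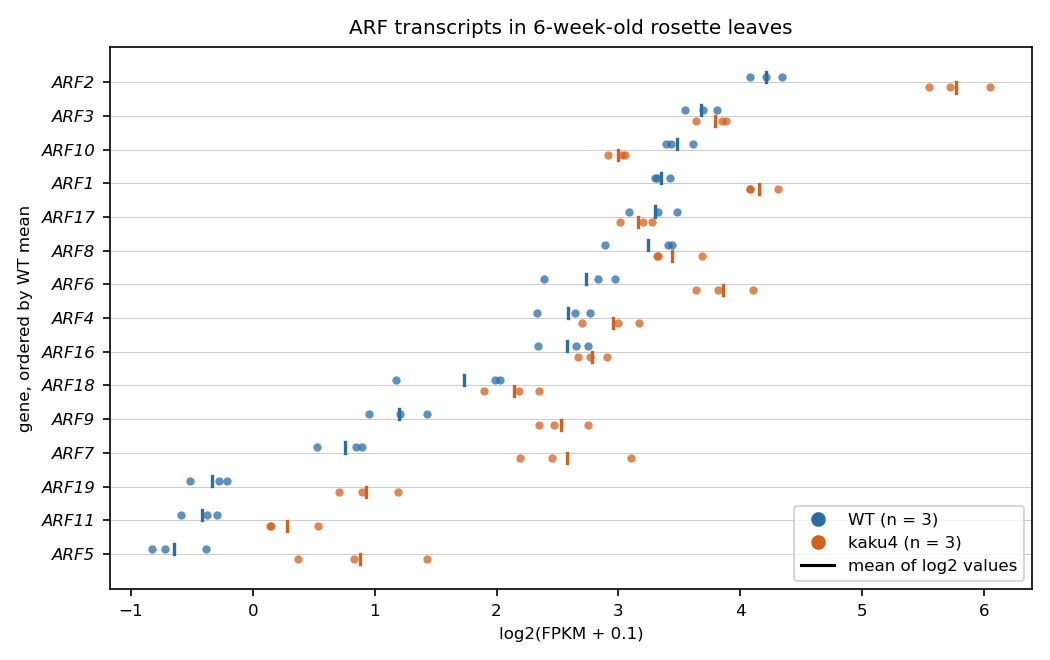
FPKM of the 15 ARF genes, on the horizontal axis as log2(FPKM + 0.1), with 1 point per library (WT blue, *kaku4* orange, n = 3 each) and a bar at the mean of the log2 values, ordered by WT mean. *ARF1*, *ARF2*, *ARF5*, *ARF6*, *ARF7*, *ARF9*, *ARF11* and *ARF19* have all mutant points to the right of the WT points, and *ARF10* has them to the left.

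Summed over the families on the deposited scale, the balance of repressor and factor transcripts differed between the genotypes. The Aux/IAA genes summed to 1384 to 1510 FPKM in WT and 687 to 850 FPKM in *kaku4*. The ARF genes summed to 90.5 to 108 FPKM in WT and 144 to 189 FPKM in *kaku4*. The ratio of the Aux/IAA sum to the ARF sum was 15.3, 15.1 and 12.9 in WT and 5.89, 3.64 and 5.31 in *kaku4*, without overlap. This ratio carries the length trend described below, as the families differ in length. The sums were not computed with that trend removed. The median log2 fold change of all genes in the members' length deciles had a middle value of -0.35 for Aux/IAA and 0.74 for ARF. As a share of the FPKM sum of each library, the Aux/IAA genes took 0.0888% to 0.107% in WT and 0.0712% to 0.0839% in *kaku4*, and the ARF genes 0.00580% to 0.00707% in WT and 0.0121% to 0.0198% in *kaku4*. No p is given for these sums, as an exact permutation test of 3 against 3 libraries cannot go below 0.1.

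Transcript length moved with both results. Over all genes the median log2 fold change went from -0.85 in the shortest decile of transcripts to 1.16 in the longest. The tested Aux/IAA transcripts had a median length of 1356 nucleotides (781 to 2025) and the ARF transcripts one of 2998 nucleotides (2367 to 4429), so the families did not overlap in length. Across the 40 members Spearman's rho of log2 fold change with length was 0.88, and it was 0.59 over 20425 genes with a length. Genes are not independent replicates, and these values are descriptions.

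Against genes of like length, the Aux/IAA genes were still low and most of the ARF genes were not high. Of 25 Aux/IAA genes, 23 lay below the median of all genes in their length decile. In the sixth decile, the median log2 fold change of the 4 Aux/IAA genes was -0.98 beside 0.038 for all genes, and 2 of the 4 were called lower where 5.93% of all genes were. In the second decile 4 of 6 were called lower, where 28.7% of all genes were. Of 15 ARF genes, 9 lay below their decile median. In the tenth decile 5 of 7 ARF genes were called higher, where 61.6% of all genes were, and in the ninth 1 of 6 was, where 33.2% were. The 3 class C genes were all below their decile median of 0.74.

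**Figure D3:**
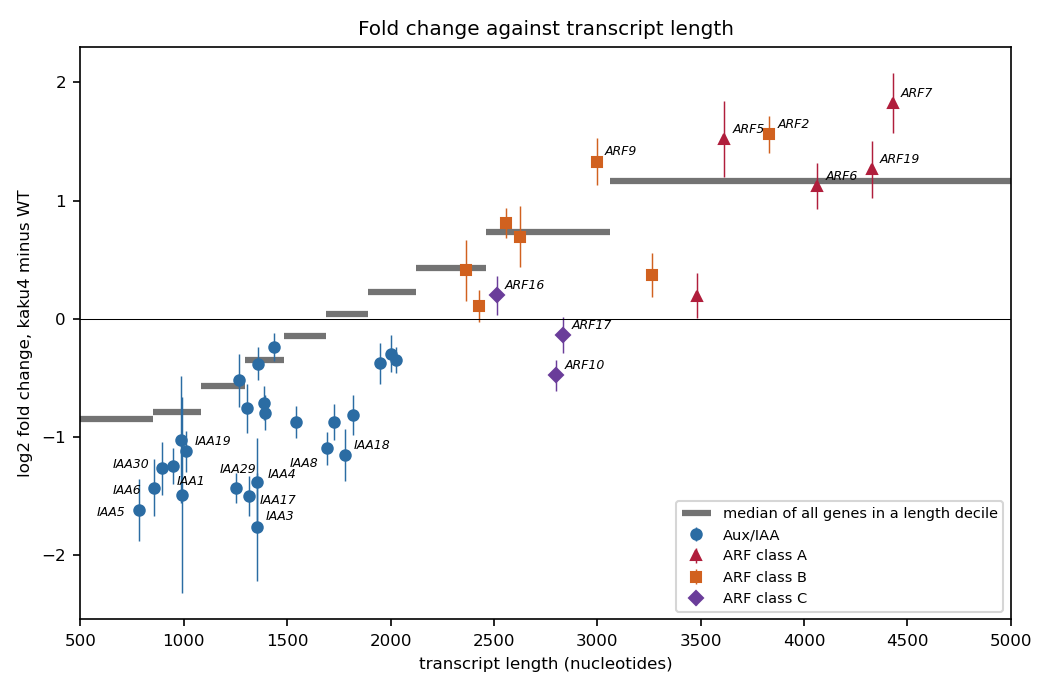
Log2 fold change (*kaku4* minus WT, with SE) against transcript length in nucleotides for the 40 tested members, with grey bars at the median of all genes in each decile of length (the axis stops short of the end of the longest decile). Called members and the class C genes are named. The Aux/IAA points lie mostly under the grey bars. The ARF points lie on both sides, with the class C genes, *ARF4* and *ARF8* under their bars.

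When the length trend was removed from each library, 4 Aux/IAA genes were called lower, beside 5.23% of all genes, and all 4 were among the 11. They were *IAA3* (log2 fold change -1.42, limma adjusted p = 0.042), *IAA18* (-1.19, adjusted p = 0.0070), *IAA17* (-1.12, adjusted p = 0.00094) and *IAA8* (-1.06, adjusted p = 0.00080). *IAA29* came to -0.99 (limma adjusted p = 0.00082) and *IAA4* to -1.05 (adjusted p = 0.057), each just short of 1 criterion. On the adjusted p alone 17 of 25 Aux/IAA genes were lower, beside 20.0% of all genes, and 24 of 25 fold changes were negative, *IAA27* being at 0.022. The median log2 fold change was -0.58. The short genes *IAA1*, *IAA5*, *IAA6*, *IAA19* and *IAA30* came to between -0.45 and -0.80.

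None of the 15 ARF genes was called higher with the length trend removed, where 7.76% of all genes were. On the adjusted p alone 3 were higher, beside 20.2% of all genes. These were *ARF7* (log2 fold change 0.61, limma adjusted p = 0.030), *ARF9* (0.51, adjusted p = 0.032) and *ARF2* (0.48, adjusted p = 0.013). *ARF5* was at 0.50 (limma adjusted p = 0.14), *ARF19* at 0.075 and *ARF6* at -0.013. *ARF10* was then called lower, with a log2 fold change of -1.21 (limma adjusted p = 0.00088), and 4 others were lower on the adjusted p alone, *ARF17* (-0.88, adjusted p = 0.0018), *ARF8* (-0.79, adjusted p = 0.0073), *ARF4* (-0.55, adjusted p = 0.016) and *ARF3* (-0.41, adjusted p = 0.022). *ARF16* (-0.37, limma adjusted p = 0.079) and *ARF18* (-0.066, adjusted p = 0.84) also turned negative but did not pass the test. The median over the 15 was -0.013. Of the 6 ARF genes called on the deposited scale, *ARF6* alone changed sign with the trend removed, and the others stayed positive at fold changes under the criterion.

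**Figure D4:**
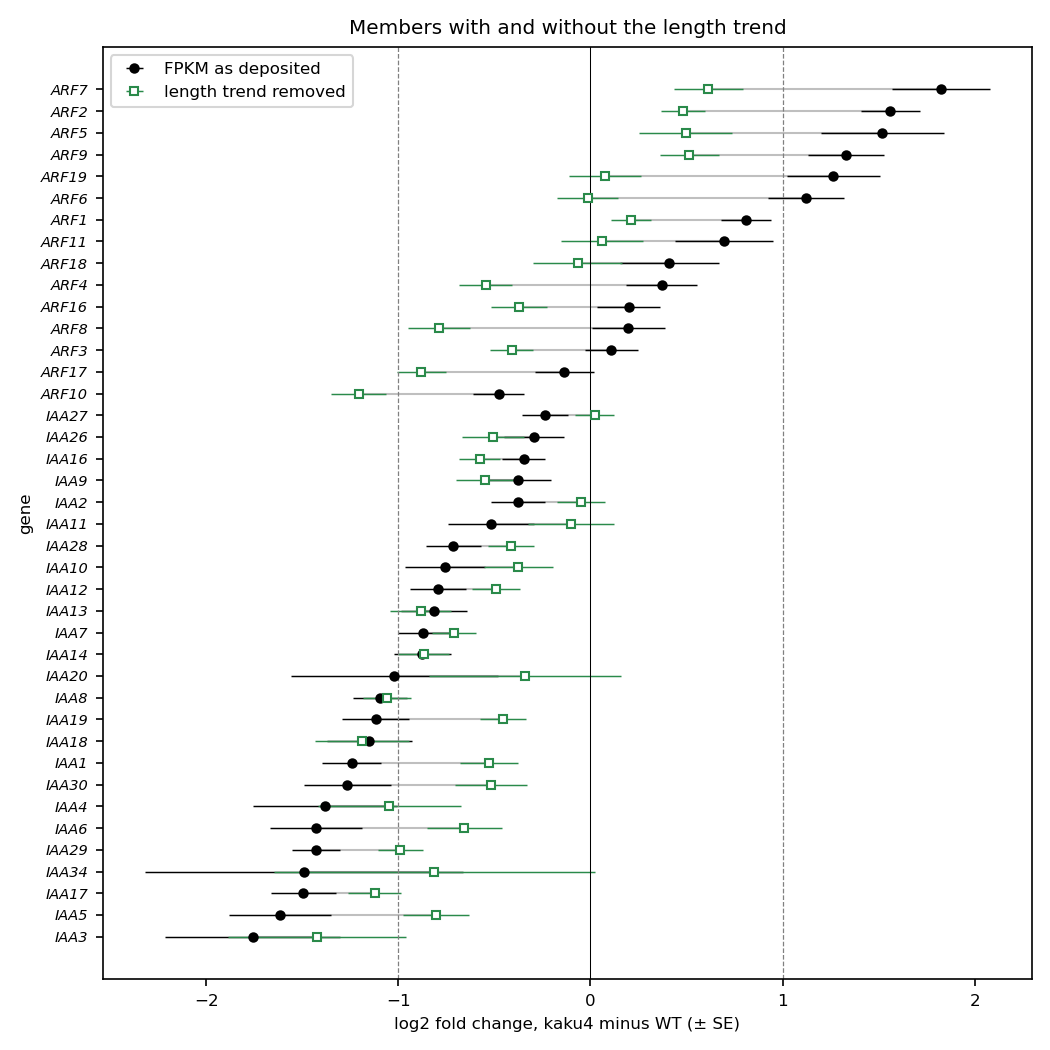
Log2 fold change (*kaku4* minus WT, with SE) of the 40 tested members from the deposited FPKM (black circles) and with the length trend removed (green squares), joined by a line per gene, with dashed lines at -1 and 1. The ARF squares shift left of their circles and straddle 0, while the Aux/IAA squares stay left of 0 but for *IAA27*.

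Markers of other cell types also moved between the genotypes. Of 6 flower markers 5 fell (*AP1*, *PI*, *AG*, *SEP1* and *SEP3*), beside 11.5% of all genes. The 6 summed to 2.55 to 3.62 FPKM in WT and 0.667 to 0.933 FPKM in *kaku4*. The WT means of the 5 were low, from 0.259 FPKM for *SEP1* to 0.943 FPKM for *AP1*. With the length trend removed *PI*, *AG* and *SEP1* were still called lower, beside 5.23% of all genes. *AP1* (log2 fold change -0.96) and *SEP3* (limma adjusted p = 0.055) were not. The meristem gene *STM* went from 16.4, 16.5 and 15.97 FPKM in WT to 9.12, 9.35 and 9.90 FPKM in *kaku4* (log2 fold change -0.78, limma adjusted p = 0.0011), while *CLV3* was listed at 0 in 5 libraries and *WUS* had no value. The 5 vascular markers summed to 55.4 to 62.6 FPKM in WT and 85.0 to 101 FPKM in *kaku4*, but none was called. The phloem gene *SUC2* made up most of that sum (40.3, 37.4 and 43.5 FPKM in WT against 69.3, 75.7 and 63.7 FPKM in *kaku4*), and *APL* and *XCP1* overlapped between the genotypes. The 3 epidermal and guard cell markers summed to 20.5 to 23.2 FPKM in WT and 17.4 to 23.9 FPKM in *kaku4*. The part of these cell types in the Aux/IAA and ARF differences was not tested.

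The sequence upstream of the members was searched for the auxin response element. The windows ran from 250 bases before to 50 bases after the annotated start, and both strands were read. The motif TGTCTC was in 11 of 28 Aux/IAA windows (39.3%) and in 1 of 15 ARF windows (6.67%), beside 14.2% of 27444 nuclear protein-coding genes. The variant TGTCGG was in 6 Aux/IAA windows (21.4%) and 2 ARF windows (13.3%), beside 5.12%. Either motif was in 6 of the 11 Aux/IAA genes called lower and in 7 of the 14 not called, so the called genes did not hold it more often than the others by more than 1 gene. *IAA19* had 3 copies of TGTCTC and *IAA5* had 1 copy of TGTCTC and 2 of TGTCGG, whereas *IAA3*, *IAA17*, *IAA18* and *IAA29* had none in this window.

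In position, 3 pairs of Aux/IAA genes were neighbours, *IAA3* with *IAA17*, *IAA1* with *IAA14* (10732 bases apart) and *IAA2* with *IAA7* (12510 bases apart). Both genes of the first pair were called lower. In the others *IAA1* was called and *IAA14* was not (log2 fold change -0.87, limma adjusted p = 0.0017), and neither *IAA2* (-0.38, adjusted p = 0.047) nor *IAA7* was. In all, 13 members overlap another annotated gene, among them 5 of the 17 called, and the strand of counting is not stated. For *IAA3* the overlap with a gene on the other strand covers 640 bases (41.5% of the locus), for *IAA5* 48, for *ARF7* 254, for *ARF5* 23 and for *ARF19* 6 bases, the last on the same strand.

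The rest of the auxin pathway did not move in one direction. Of 64 listed genes, 60 had a value and 56 were tested, of which 14 rose and 8 fell, beside 16.4% and 11.5% of all genes, with a median log2 fold change of 0.059. None of the 6 receptor genes was called in limma. With an unadjusted p under 0.05, 2 were higher and 1 was lower, beside 31.2% and 30.9% of all genes. *TIR1* had 36.5, 39.1 and 46.9 FPKM in WT and 51.0, 50.4 and 47.3 FPKM in *kaku4* (log2 fold change 0.29, limma adjusted p = 0.091). *AFB1* (0.55, limma adjusted p = 0.0080) and *AFB4* (0.47, adjusted p = 0.026) were higher on the adjusted p alone, and *AFB3* (0.074, adjusted p = 0.67) and *AFB5* (0.25, adjusted p = 0.18) were not. *AFB2*, a receptor close to *AFB3*, had 27.9, 33.2 and 38.4 FPKM in WT and 23.7, 23.8 and 24.9 FPKM in *kaku4*. The log2 fold change was -0.45 (limma adjusted p = 0.026), and -1.14 (adjusted p = 0.0012) with the length trend removed, when it was the one receptor called.

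The 5 TOPLESS co-repressor genes, the partners of the Aux/IAA proteins, were all called higher, beside 16.4% of all genes. Their median log2 fold change was 1.40. All 5 lie in the longest decile of transcripts, where 61.6% of all genes were called higher and the median was 1.16. None of the 5 was called with the length trend removed. *TPL* had 7.85, 10.2 and 9.98 FPKM in WT and 23.0, 33.9 and 27.5 FPKM in *kaku4* (log2 fold change 1.57, limma adjusted p = 0.00041). *TPR2* and *TPR3* were at 1.41 and 1.40. With the trend removed the median of the 5 was 0.31 and *TPR1* turned to -0.058. In the ubiquitin ligase, the scaffold gene *CUL1* rose (log2 fold change 1.13, limma adjusted p = 0.0017) and the RING subunit gene *RBX1* fell (-1.17, adjusted p = 0.0021), and neither was called with the trend removed. The co-chaperone gene *SGT1B* of the same list was called higher then (log2 fold change 1.08, limma adjusted p = 0.00086), after 0.97 on the deposited scale.

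The GH3 genes encode enzymes that conjugate auxin to amino acids and so lower free auxin. Of the 6 tested genes of the group 5 rose, beside 16.4% of all genes. *GH3.3* had 0.710, 0.744 and 0.621 FPKM in WT and 6.31, 6.36 and 5.65 FPKM in *kaku4*, and rose by 2.97 on the log2 scale (SE 0.18, limma adjusted p = 4.0e-05). *GH3.2* went from 0.0813, 0.0703 and 0.154 FPKM in WT to 5.38, 5.31 and 3.34 FPKM in *kaku4*, for a log2 fold change of 4.56 (SE 0.30) on the scale with 0.1 added, which understates the change of so low a gene. *GH3.5* had 2.99, 3.13 and 3.37 FPKM in WT and 9.75, 11.8 and 9.93 FPKM in *kaku4* (log2 fold change 1.69, limma adjusted p = 0.00019). These are genes that auxin induces, as are many Aux/IAA genes, and the 2 groups differed in direction here. With the length trend removed 4 of the 5 remained called, *GH3.2*, *GH3.3*, *GH3.5* and *GH3.17*, beside 7.76% of all genes called higher.

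Among 8 auxin synthesis genes tested 1 was called lower, beside 11.5% of all genes, and none higher, beside 16.4%. The called gene was *TAR2*, which encodes an enzyme of the indole-3-pyruvate route. It had 6.53, 7.13 and 6.38 FPKM in WT and 2.58, 2.44 and 2.08 FPKM in *kaku4* (log2 fold change -1.46, limma adjusted p = 0.00037), and -1.70 with the length trend removed. Of 15 transport genes 3 rose, beside 16.4% of all genes, and 1 fell, beside 11.5%. The efflux genes *ABCB1* (log2 fold change 1.67), *ABCB4* (1.596) and *ABCB19* (1.21) rose, and the influx gene *LAX3* fell (-1.02, limma adjusted p = 0.0013). These 3 efflux genes lie in the longest decile of transcripts, where 61.6% of all genes were called higher. With the trend removed no transport gene was called higher, beside 7.76% of all genes, and 5 were called lower, beside 5.23%. Those called lower included the influx genes *AUX1*, *LAX1* and *LAX3*.

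The SAUR genes, short auxin-induced genes linked to cell expansion, were mostly lower on the deposited scale. Of 11 tested 5 fell, beside 11.5% of all genes, among them *SAUR20* (log2 fold change -1.48), *SAUR15* (-1.46) and *SAUR21* (-1.24). These 5 lie in the shortest decile of transcripts, where 31.6% of all genes were called lower. The median log2 fold change was -0.86 for the 11 SAUR genes and -0.85 for all genes of that decile. None was called higher, beside 16.4% of all genes. At an unadjusted p under 0.05 in limma 1 was higher, beside 31.2%. *SAUR15* had 81.5, 79.6 and 56.1 FPKM in WT and 31.4, 16.1 and 34.5 FPKM in *kaku4*, and like *IAA3* it was lowest in WT replicate 3 and *kaku4* replicate 2. The genes *SAUR19* to *SAUR24* share stretches of 50 bases with each other, 18.5% of them for *SAUR19*, which makes their values uncertain. After removal of the length trend no SAUR gene was called lower and *SAUR36* was called higher (log2 fold change 1.03). Over the pathway list the calls without WT replicate 3 or without *kaku4* replicate 2 came to 5 lower in place of 8.

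**Figure D5:**
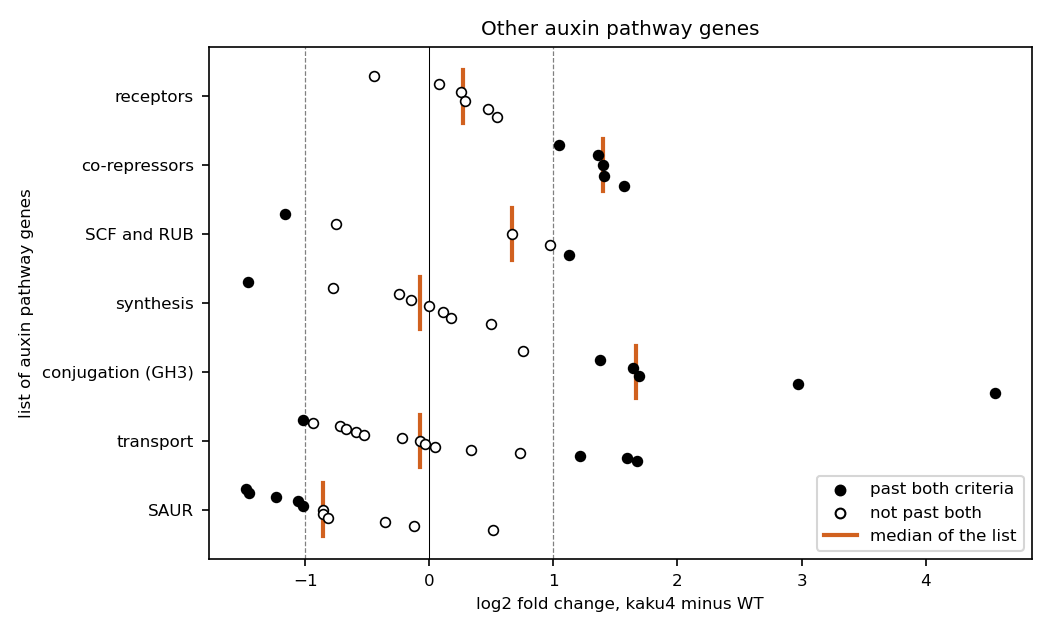
Log2 fold change (*kaku4* minus WT) of the 56 tested auxin pathway genes by list, with filled points for genes past both criteria, open points for the others, an orange bar at the median of each list and dashed lines at -1 and 1. On the deposited scale the co-repressor and conjugation genes lie to the right of 0 (*TPR1* not so with the length trend removed), the SAUR genes mostly to the left, and the receptors close to 0.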

How the data were processed

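RNA-seq of 3 WT and 3 *kaku4* samples was used, and the H3K27me3 ChIP-seq samples of the series were not analysed here. Per the paper's methods, the authors aligned reads to TAIR10 with TopHat2 2.0.9 and calculated the deposited FPKM values with Cufflinks, both at default settings. FPKM is already scaled for transcript length and library size. The columns also hold a spreadsheet mark in 1442 of 24492 loci, which were left out, so the deposited values stand recorded under a general unit.

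In R 4.3.3, limma 3.58.1 (eBayes with a mean-variance trend) was fitted to log2(FPKM + 0.1) for the 20618 of 23050 genes whose mean reached 0.1 FPKM, with no covariates and Benjamini-Hochberg adjustment over all of them. Fold changes are on that scale, which understates those of low genes. Lengths, coordinates and sequences came from RefSeq annotation of TAIR10.1. For the length trend, a lowess (span 0.4) of each library's deviation from the gene mean on log length was subtracted. The fit was tested on simulated data.

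The members and gene lists were chosen with earlier results of these data known. Full statistics were given for called members, the 3 most abundant of each family and members whose call or direction changed with length. Of the pathway genes, every receptor and up to 3 calls per direction and list could be named. The pathway genes called only with length removed, and *SAUR36*, were named after their values were seen. From the pathway list 2 symbols of oxidation genes that the annotation lacks were dropped. In all, 17 other settings and 1 chosen after seeing the data were run.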

Additional observations from a re-analysis of the deposited data

How the results depend on the processing

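With the length trend removed, 0 ARF genes were called higher and 1 lower, 4 Aux/IAA genes lower, 6 pathway genes higher, and 1600 and 1078 of all genes higher and lower, in place of 3380 and 2371. The medians came to -0.013 for ARF and -0.58 for Aux/IAA. *ARF6* turned to -0.013 and *TPR1* to -0.058. With that trend removed and no fold criterion (chosen after seeing the data), 3 ARF genes were higher and 5 lower, 17 Aux/IAA genes and 4131 of all genes lower, and 9 pathway genes higher, with *ARF3* at -0.41, *ARF4* at -0.55, *ARF8* at -0.79 and *PIN7* at -0.39. With no fold criterion alone, 1 ARF, 19 Aux/IAA and 17 pathway genes were lower, and 5905 and 5844 of all genes higher and lower. A pseudocount of 1 gave 1743 of all genes higher and medians of 0.36 (ARF) and -0.81 (Aux/IAA). A minimum mean of 1 FPKM gave an Aux/IAA median of -0.87. Centring each library moved the median of all genes to -0.19, gave 3846 genes lower and medians of 0.50 and -1.22, with 12 of 15 ARF genes positive. Quantile normalization gave 5 pathway genes lower and medians of 0.34 and -0.87, with 2 of 25 Aux/IAA genes positive. The cause was not tested.

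Leaving out 1 library at a time gave 5 to 6 ARF genes higher and 7 to 12 Aux/IAA genes lower, 5 to 10 pathway genes lower, and an Aux/IAA median of -1.15 to -0.84. Same-number correlations between genotypes were 0.31, 0.082 and 0.0061. The replicate 1 libraries, which also share a high chloroplast sum, thus deviated together, and the other same-number libraries hardly did. Across numbers, WT replicate 3 with *kaku4* replicate 2 gave 0.21, and WT replicate 2 with *kaku4* replicate 3 gave 0.20. The numbers were not taken as pairs. Without replicate 1 of both genotypes 6 ARF genes were higher and 12 Aux/IAA genes lower. The replicate block changed no call of the 40 members. The replicate block with the length trend removed gave 0 ARF genes higher and 1 lower, 5 Aux/IAA genes lower, 6 pathway genes higher, 1639 and 1104 of all genes higher and lower, and medians of -0.013 and -0.58, with *ARF6* at -0.013 and *TPR1* at -0.058. The lack of counts limits low genes such as *IAA20*, *IAA32* and *IAA34*.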
